A study of Mus musculus with 12 samples.

Results

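*Pou5f1*, *Sox2*, *Sall4*, *Utf1*, *Lin28a* and *Zfp281* are genes of the general pluripotency core of mouse embryonic stem cells (ESCs). They were taken by symbol from the deposited expression table, where they are 6 of 50978 rows, and all 6 passed the filter on low values that left 12914 genes for testing. The study asked how PRAMEL7, a protein of the PRAME family that binds the ubiquitin ligase subunit CUL2, changes gene expression in ESCs. RNA was available from 3 lines of E14 ESCs, each grown without feeders in medium with 15% serum and LIF (leukaemia inhibitory factor). Parental ESCs carry no transgene. ESC + H/F-PRAMEL7-WT (PRAMEL7-WT ESCs) express full-length PRAMEL7 with an HA/FLAG tag, and ESC + H/F-PRAMEL7-ΔN (PRAMEL7-ΔN ESCs) express the tagged protein without the N-terminal stretch that contacts CUL2, 50 amino acids long in the labels and shorter in the study's text. In both derived lines the transgene had been placed with Cas9 into *Rosa26* under the ubiquitous CAG promoter, followed by puromycin and isolation of clones from single cells, so that clone, selection and transgene cannot be told apart when a derived line is set against parental ESCs. Each line had 2 libraries, made from independent dishes, and p-values measure the spread between dishes of a line.

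OCT4, the product of *Pou5f1*, and SOX2 bind DNA side by side at a composite site and together hold ESCs in the pluripotent state. SALL4, a zinc finger factor, and UTF1, a chromatin-bound protein, act beside them, ZFP281 is a zinc finger factor that takes part in the exit from naive pluripotency, and LIN28A is an RNA-binding protein that blocks maturation of let-7 microRNAs. All of these genes are known to be on in ESCs in serum as well as in the ground state, whereas factors such as *Klf4* and *Nanog* are known to vary more between the states.

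*Sox2* and *Utf1* are classical targets of the OCT4-SOX2 pair, through enhancers that lie downstream of each gene. The composite motif, CATTGT, any base and ATGC in a row, was searched on both strands from 3000 bases before to 5000 bases after each gene start, in the RefSeq sequence of GRCm38.p6 (the mm10 assembly). It was found at 144 of 12093 tested coding genes (1.19%), and among the 6 core genes at *Sox2* and *Utf1*. Both were known targets before the search, with known sites downstream, so their matches beside this share are no test of enrichment. Both sites are printed because they are the only members with a match, with the motif in capitals and 8 bases on each side. The *Sox2* site, at chr3:34654041-34654067 on the plus strand, lies 1593 bases past the end of the gene. The *Utf1* site, at chr7:139945677-139945703, lies 578 bases past the end of the gene and is written on the minus strand, where the motif reads. Within the motif, the sites differ at the base left free in the search. A match of letters is a description of the window and no measure of binding.
Sox2 downstream site: cgggcagcCATTGTGATGCatatagga
Utf1 downstream site: tgagccgtCATTGTTATGCtagtgaag

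The promoters of *Utf1* and *Zfp281*, 2 of the 3 genes for which a difference passed the test, held GC boxes (GGGCGG on either strand, overlaps counted), the motif of the SP family. Each held 4 in its RefSeq promoter window, which runs from 250 bases before to 50 after the start. At least 1 was held by 35.7% of 32851 promoter windows, and the share with 4 was not counted. The *Utf1* and *Zfp281* windows had 62% and 70.7% GC, more than 75.3% and 91.4% of promoter windows. *Sox2* held 2 and *Lin28a* 1, *Pou5f1* held 1 and 0 in its 2 windows, and *Sall4* was not matched. The 100 bases before each GENCODE gene start are shown with the GC boxes in capitals, at chr7:139943689-139943788 for *Utf1* and at chr1:136624801-136624900 for *Zfp281*, both on the plus strand. In *Utf1* the boxes read forward and in *Zfp281* in reverse. A link between the boxes and the changes in the results that follow was not tested.
Utf1 promoter: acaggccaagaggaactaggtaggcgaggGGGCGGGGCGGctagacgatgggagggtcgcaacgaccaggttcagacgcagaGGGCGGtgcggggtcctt
Zfp281 promoter: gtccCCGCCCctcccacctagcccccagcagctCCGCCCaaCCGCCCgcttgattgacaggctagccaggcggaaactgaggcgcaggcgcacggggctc

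Values are given as CPM, the reads of a gene scaled to the reads on all genes, computed from the deposited RPKM with the authors' scaling between libraries kept. Each library held between 18246013 and 19846838 reads on genes. As a check of the labels, *Pramel7* had 0.258 and 0.217 CPM in parental ESCs (5 and 4 reads), 51.2 and 46.2 in PRAMEL7-WT ESCs and 398 and 431 in PRAMEL7-ΔN ESCs, so that the lines also differ in transgene level. Parental libraries were further apart than those of the derived lines: the median absolute log2 difference between the 2 libraries, over genes above 10 CPM, was 0.168 for parental ESCs, 0.0815 for the PRAMEL7-WT line and 0.103 for the ΔN line. Of 20 markers of other cells (endoderm, mesoderm, neural, trophoblast, fibroblast and 2-cell-like), 2 to 6 had no read in a library and their summed level was 31.9 to 64.7 CPM, against 1963 to 2367 CPM for the 6 core genes. These sums were 53.0 and 64.7 CPM in parental ESCs, 31.9 and 36.6 in PRAMEL7-WT ESCs and 59.2 and 56.6 in PRAMEL7-ΔN ESCs, and *Thy1* made up most of each.

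Per kilobase of exon, *Pou5f1* was the most abundant core gene and *Zfp281* the least in every library. In parental ESCs, *Pou5f1* had 313.4 ± 28.4 CPM per exon kilobase (SD, n = 2), which placed it at rank 118 of 12914 tested genes. *Utf1* followed with 187.8 ± 50.5, then *Sox2* with 113.8 ± 19.5 and *Lin28a* with 113.6 ± 15.4, *Sall4* with 56.9 ± 1.54 and *Zfp281* with 18.9 ± 3.28 (SD, n = 2 each). *Sox2* and *Lin28a* overlapped in parental ESCs and swapped places between the libraries, whereas all other neighbours in this order were apart in each line. In the derived lines *Lin28a* was above *Sox2* in all 4 libraries, with 117 and 117 against 83.7 and 102 CPM per exon kilobase in PRAMEL7-WT ESCs and 111 and 115 against 80.4 and 92.5 in PRAMEL7-ΔN ESCs. Per exon length, *Pou5f1* exceeded *Sox2* 2.93- and 2.61-fold in the parental libraries, 4.38- and 3.74-fold in PRAMEL7-WT ESCs and 4.29- and 3.65-fold in PRAMEL7-ΔN ESCs. Both derived lines lay above the parental libraries in this ratio and overlapped each other, and the ratio itself was not tested.

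**Figure D1:**
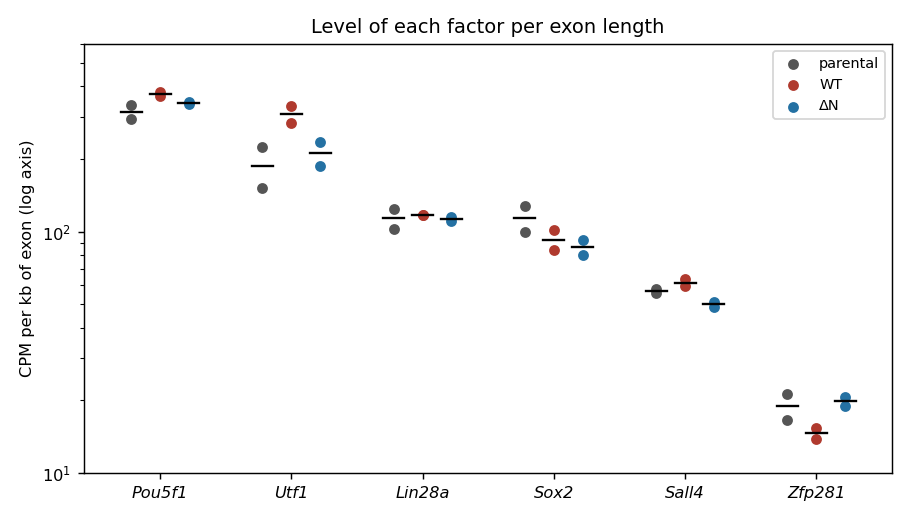
Level of each core gene in CPM per kilobase of exon (log axis) for parental, PRAMEL7-WT (WT) and PRAMEL7-ΔN (ΔN) ESCs, with 1 point per library and a bar at the mean of 2. *Pou5f1* was highest and *Zfp281* lowest in all 6 libraries, and *Sox2* and *Lin28a* overlapped in parental ESCs.

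When PRAMEL7-WT ESCs were compared with parental ESCs, *Utf1* rose and no other core gene passed the test, as the plots of CPM by line and of log2 fold changes show. *Utf1* encodes a protein found almost only in pluripotent and germ cells. Of the 6 core genes 1 was called at an adjusted p under 0.05 (limma on log2(CPM + 1), Benjamini-Hochberg over 12914 genes). With 25% of all tested genes called, a count this small is no result about the core genes as a group. *Utf1* (ENSMUSG00000047751.9, 2 exons at chr7:139943789-139945112, plus strand) had 187 and 274 CPM in parental ESCs, 347 and 409 in PRAMEL7-WT ESCs and 288 and 230 in PRAMEL7-ΔN ESCs. Both PRAMEL7-WT libraries lay above all other libraries, while the ΔN libraries overlapped the parental ones. The mean of 378.0 ± 44.0 CPM in PRAMEL7-WT ESCs was 1.64-fold that of 230.4 ± 62.0 in parental ESCs (SD, n = 2 each), with a log2 fold change of 0.73 (SE 0.17, 95% interval 0.34 to 1.12, adjusted p = 0.0155 from limma with Benjamini-Hochberg adjustment). The call rested on every PRAMEL7-WT library and was lost without either, with log2 fold changes of 0.85 without PRAMEL7-WT replicate 1 and 0.61 without replicate 2. The log2 fold change was 0.46 without parental replicate 1 and 1.01 without parental replicate 2. In bulk RNA, more expressing cells and more RNA per cell cannot be told apart.

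**Figure D2:**
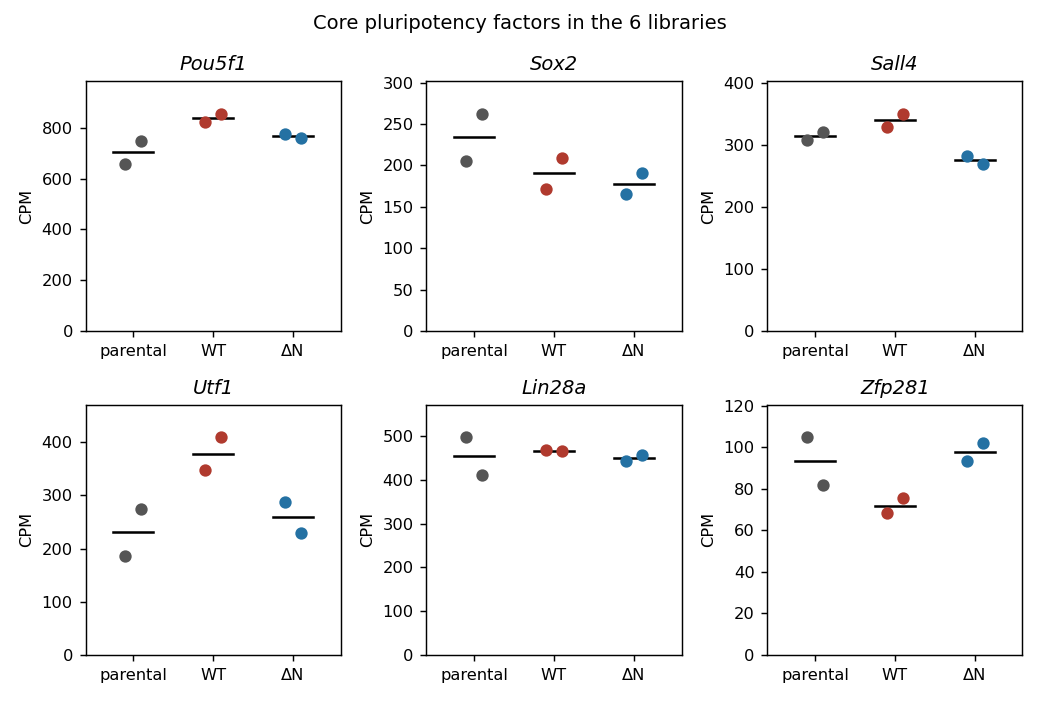
CPM of the 6 core genes in parental, PRAMEL7-WT (WT) and PRAMEL7-ΔN (ΔN) ESCs, 1 point per library and a bar at the mean of 2, with axes from 0. *Utf1* in the WT libraries (347 and 409 CPM) lay above the other 4 libraries, and *Zfp281* in the WT libraries (68.2 and 75.7 CPM) lay below them.

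*Pou5f1* and *Zfp281* were separated from parental ESCs in the PRAMEL7-WT line without passing the adjusted test. *Pou5f1* (ENSMUSG00000024406.16, chr17:35506018-35510772, plus strand) had 659 and 750 CPM in parental ESCs, 823 and 855 in PRAMEL7-WT ESCs and 775 and 759 in PRAMEL7-ΔN ESCs. All PRAMEL7-WT values exceeded all ΔN values, which in turn exceeded the parental ones, with small steps. For PRAMEL7-WT ESCs over parental ESCs the log2 fold change was 0.25 (SE 0.089, adjusted p = 0.0624, limma with Benjamini-Hochberg adjustment), and the 95% interval of the ratio ran from 1.04 to 1.37. *Zfp281* (ENSMUSG00000041483.14, 2 exons at chr1:136624901-136630053, plus strand) had 105 and 82.0 CPM in parental ESCs, 68.2 and 75.7 in PRAMEL7-WT ESCs and 93.4 and 102 in PRAMEL7-ΔN ESCs. Its PRAMEL7-WT values were the lowest of the 6, and its ΔN values fell between the parental ones. The log2 fold change over parental ESCs was -0.36 in PRAMEL7-WT ESCs (SE 0.12, adjusted p = 0.0581, limma with Benjamini-Hochberg adjustment). Without parental replicate 2, *Pou5f1* had 0.35 and *Zfp281* -0.54 in this comparison, whereas without parental replicate 1 they had 0.16 and -0.19. Such a fit takes its spread from the derived lines alone, whose libraries were closer together than the parental ones. No adjusted p is therefore given for fits without a parental library.

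In PRAMEL7-ΔN ESCs, none of the 6 core genes differed from parental ESCs by the adjusted test (limma, Benjamini-Hochberg), with 19.9% of all tested genes called. At an unadjusted p under 0.05 from limma, 2 of 6 were below it (*Sox2* and *Sall4*). The share of all tested genes below it was not counted, so this count is no result about the core genes. With limma voom on whole reads, 0 were called at the adjusted p. *Sox2* (ENSMUSG00000074637.7, a single exon at chr3:34650405-34652461, plus strand) had 206 and 262 CPM in parental ESCs, 172 and 209 in PRAMEL7-WT ESCs and 165 and 190 in PRAMEL7-ΔN ESCs. The ΔN values lay below both parental ones, and the PRAMEL7-WT values overlapped them. The ΔN over parental log2 fold change was -0.39 (SE 0.14, 95% interval -0.69 to -0.08, adjusted p = 0.0761, limma with Benjamini-Hochberg adjustment), and that of PRAMEL7-WT ESCs was -0.29 (SE 0.14, adjusted p = 0.143). Without parental replicate 1, *Sox2* had -0.56 in PRAMEL7-ΔN ESCs and -0.47 in PRAMEL7-WT ESCs. Without parental replicate 2 the values were -0.21 and -0.12. For *Utf1* in PRAMEL7-ΔN ESCs the log2 fold change was 0.19 (adjusted p = 0.498, limma), and it was -0.09 without parental replicate 1 and 0.46 without parental replicate 2.

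**Figure D3:**
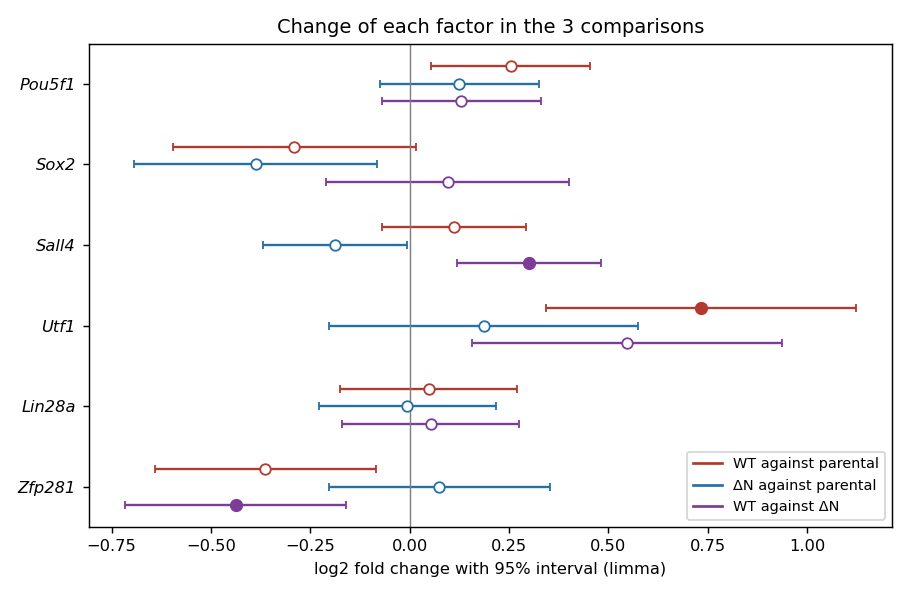
Log2 fold change of each core gene with its 95% interval from limma (all 6 libraries in 1 fit) for WT against parental, ΔN against parental and WT against ΔN. Filled points passed the adjusted p of 0.05, which were *Utf1* in WT against parental and *Sall4* and *Zfp281* in WT against ΔN.

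The derived lines share transgene locus and promoter but are separate clones with different *Pramel7* levels, so that clone, level and form of the protein cannot be told apart. Their direct contrast gave higher *Sall4* and lower *Zfp281* in PRAMEL7-WT ESCs than in PRAMEL7-ΔN ESCs. These were 2 of 6 core genes, with 20.4% of all tested genes called, a background against which a count this small is no result about the core genes as a group. *Sall4* (ENSMUSG00000027547.17, chr2:168748332-168767943, minus strand) had 309 and 321 CPM in parental ESCs, 330 and 351 in PRAMEL7-WT ESCs and 282 and 271 in PRAMEL7-ΔN ESCs. Its 3 lines did not overlap, with parental ESCs in the middle. The mean of 340.6 ± 15.0 CPM in PRAMEL7-WT ESCs was 1.23-fold that of 276.4 ± 8.31 in PRAMEL7-ΔN ESCs (SD, n = 2 each; log2 fold change 0.30, SE 0.081, adjusted p = 0.0291 from limma with Benjamini-Hochberg adjustment). Against parental ESCs, neither difference of *Sall4* passed the test, with log2 fold changes of 0.11 in PRAMEL7-WT ESCs (adjusted p = 0.333, limma) and -0.19 in PRAMEL7-ΔN ESCs (adjusted p = 0.138, limma).

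For *Zfp281* the mean was 71.9 ± 5.24 CPM in PRAMEL7-WT ESCs and 97.8 ± 6.19 in PRAMEL7-ΔN ESCs (SD, n = 2 each), a log2 fold change of -0.44 (SE 0.12, adjusted p = 0.0351 from limma with Benjamini-Hochberg adjustment). *Utf1* differed by 0.55 between these lines without passing the test (SE 0.17, adjusted p = 0.0524, limma with Benjamini-Hochberg adjustment), and its libraries did not overlap. Leaving out any of the 4 libraries of the derived lines took the adjusted p from limma of *Sall4* to between 0.0958 and 0.244 and that of *Zfp281* to between 0.0929 and 0.236. Leaving out either parental library, which adds only to the estimate of the spread, left the log2 fold change of *Utf1* at 0.55. No adjusted p is given for these fits, as above.

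*Lin28a* did not pass the test in any comparison. The gene (ENSMUSG00000050966.9, chr4:134003330-134018841, minus strand) had 497 and 411 CPM in parental ESCs, 467 and 467 in PRAMEL7-WT ESCs and 442 and 458 in PRAMEL7-ΔN ESCs. All 4 values of the derived lines fell between the parental ones. Its ratio to parental ESCs had a 95% interval of 0.885 to 1.21 in PRAMEL7-WT ESCs and 0.853 to 1.16 in PRAMEL7-ΔN ESCs, and that between the derived lines one of 0.889 to 1.21, so that changes within these bounds were not detectable here.

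Base composition moved with the PRAMEL7-WT comparisons. The median log2 fold change of genes in bins of GC content rose from -0.28 at 37% to 0.32 at 65% in PRAMEL7-WT ESCs over parental ESCs, and from -0.26 to 0.41 in the contrast with PRAMEL7-ΔN ESCs, whereas in PRAMEL7-ΔN ESCs over parental ESCs it stayed between -0.10 and -0.04. The *Utf1* transcript has 63.5% GC, more than 99.3% of tested genes, and *Zfp281* has 43.1%. The 211 tested genes within 2 points of *Utf1* had a median log2 fold change of 0.27 in PRAMEL7-WT ESCs over parental ESCs and of 0.33 in parental replicate 2 over parental replicate 1, where *Utf1* itself had 0.55. The 2068 genes near *Zfp281* had a median of -0.21 in PRAMEL7-WT ESCs over parental ESCs. After a loess correction for GC content in each library, chosen after seeing the data, *Utf1* had a log2 fold change of 0.50 in PRAMEL7-WT ESCs over parental ESCs (adjusted p = 0.00423, limma). In the contrast of the derived lines, *Sall4* then had 0.22 (adjusted p = 0.0427, limma) and *Zfp281* -0.32 (adjusted p = 0.0364, limma). The same 3 differences were therefore called, with smaller values. Against parental ESCs, the corrected value in PRAMEL7-WT ESCs was -0.14 for *Zfp281* (adjusted p = 0.298, limma), from -0.36, and 0.17 for *Pou5f1* (adjusted p = 0.116, limma), from 0.25, while the difference of *Utf1* between the derived lines went from 0.55 to 0.25 (adjusted p = 0.072, limma).

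**Figure D4:**
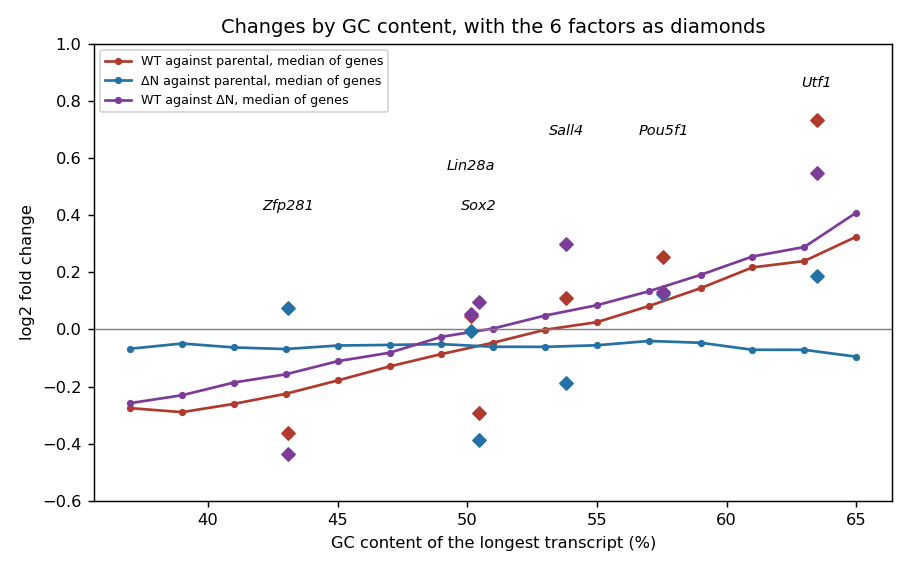
Log2 fold change against GC content of the longest transcript (%), with lines for the median of tested genes in bins of 2 points and diamonds for the 6 core genes, coloured by comparison. Medians rose with GC in both comparisons that involve WT and were flat in ΔN against parental, and *Utf1* lay at 63.5% GC above all 3 lines.

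The closest tested genes on either side of *Utf1*, *Sall4* and *Zfp281* give local context. *Kndc1*, which ends 2252 bases before *Utf1*, was higher than in parental ESCs in PRAMEL7-WT ESCs (log2 fold change 0.78, adjusted p = 0.00336, limma) and in PRAMEL7-ΔN ESCs (0.62, adjusted p = 0.00891, limma). *Adam8*, on the other side of *Utf1*, had 0.32 and 0.20 (adjusted p = 0.211 and 0.482, limma) and was not called. *Atp9a*, 5923 bases from *Sall4*, was higher in PRAMEL7-WT ESCs than in PRAMEL7-ΔN ESCs (0.55, adjusted p = 0.0086, limma), in the same direction as *Sall4*. *Zfp64*, on the other side of *Sall4*, had 0.34 in this contrast (adjusted p = 0.066, limma) and was not called. *Platr23*, 251 bases from *Zfp281*, had -0.56 in the same contrast (adjusted p = 0.0842, limma) and was not called. *Gm19705*, on the other side of *Zfp281*, was called higher (0.68, adjusted p = 0.0187, limma), opposite to *Zfp281*. Over all tested genes within 1 Mb, the median log2 fold change in PRAMEL7-WT ESCs over parental ESCs was 0.26 around *Utf1* (23 genes), and in the contrast of the derived lines it was 0.07 around *Sall4* (10 genes) and -0.14 around *Zfp281* (15 genes). Exons of *Pou5f1*, *Sall4* and *Lin28a* overlap those of the antisense genes *Gm19553*, *Gm14261* and *Gm13061*, from which reads could not be told apart because the kit does not mark strand. These were listed at 0.304 CPM or less in every library. *Sox2* lies within an intron of *Sox2ot*, which had 0.401 to 1.34 CPM.

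OCT4 and SOX2 are known to control a small group of ESC genes, and 9 such targets were followed. In PRAMEL7-WT ESCs 1 was called higher than in parental ESCs and 2 lower (1 and 1 with median-ratio scaling, 2 and 1 with the GC correction), while 8.71% of all tested genes were called higher and 16.3% lower. *Lefty1*, an inhibitor of NODAL signalling, rose from 45.4 and 52.6 CPM to 73.9 and 86.2 (log2 fold change 0.70, adjusted p = 0.00557, limma), whereas *Jarid2*, a partner of Polycomb complex PRC2, fell by 0.40 on the log2 scale and *Tdgf1*, the NODAL co-receptor, fell by 0.34. In PRAMEL7-ΔN ESCs 2 were called higher and 3 lower (1 and 3 with quantile normalization), while 6.25% of all tested genes were called higher and 13.6% lower. *Spp1*, which encodes the secreted protein osteopontin, had 163 and 158 CPM in parental ESCs, 179 and 188 in PRAMEL7-WT ESCs and 42.8 and 51.2 in PRAMEL7-ΔN ESCs, a log2 fold change of -1.76 for the ΔN line (SE 0.10, adjusted p = 9.63e-06, limma). *Lefty1* and *Fbxo15*, which encodes an F-box protein, were the other genes that fell, by 0.84 and 0.77 on the log2 scale, while *Gdf3* (0.53), a TGF-beta ligand, and *Dppa5a* (0.38), an RNA-binding protein, rose. *Lefty1* thus changed in opposite directions in the derived lines, and the direct contrast gave 1.54 (SE 0.13, adjusted p = 8.31e-05, limma). *Fgf4*, the classical target and the differentiation signal of ESCs, had 206 and 196 CPM in parental ESCs against 187 and 184 in PRAMEL7-WT ESCs and 194 and 195 in PRAMEL7-ΔN ESCs, with no call. The median over the 9 targets was 0.10 in PRAMEL7-WT ESCs and -0.05 in PRAMEL7-ΔN ESCs, beside -0.08 and -0.06 over all tested genes.

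**Figure D5:**
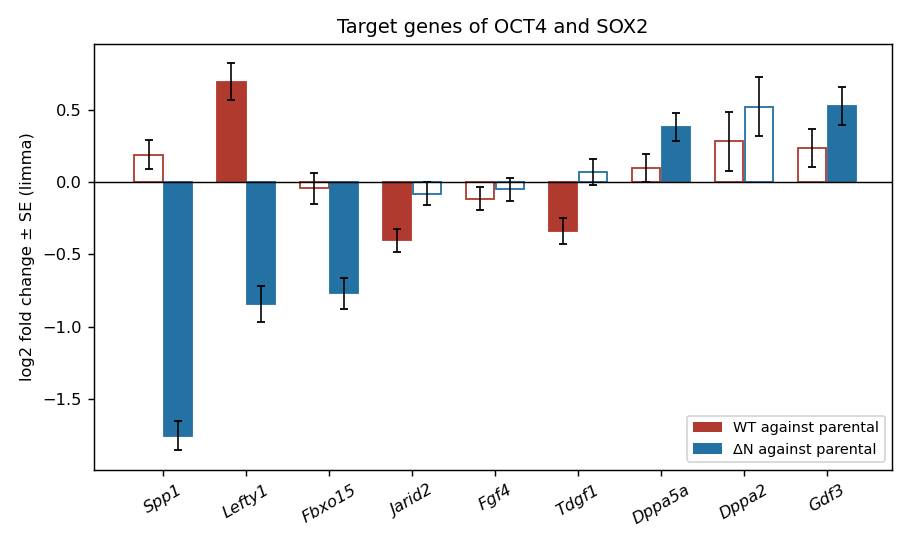
Log2 fold change ± SE (limma) of 9 target genes of OCT4 and SOX2 in WT and ΔN over parental ESCs, ordered by the ΔN value, with filled bars for an adjusted p under 0.05. *Spp1* reached -1.76 in ΔN, and *Lefty1* was called in opposite directions in the lines.

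Of 23 factors known to work beside OCT4 and SOX2, all were tested, and in PRAMEL7-WT ESCs 3 were called higher and 5 lower than in parental ESCs, against 8.71% and 16.3% of all tested genes. With median-ratio scaling these numbers were 5 and 2, and with the GC correction 3 and 1, so that the balance of directions depends on the scaling. *Tcf7l1*, the repressor at the end of the WNT pathway, rose in both lines (0.96 in PRAMEL7-WT ESCs with an adjusted p of 0.000818, and 0.82 in PRAMEL7-ΔN ESCs with an adjusted p of 0.000804, limma). *Nr0b1*, an orphan nuclear receptor, had 68.9 and 68.9 CPM in parental ESCs, 117 and 130 in PRAMEL7-WT ESCs and 74.1 and 68.6 in PRAMEL7-ΔN ESCs (0.83 in PRAMEL7-WT ESCs, adjusted p = 0.000991, limma). *Klf4* fell by 0.66 in PRAMEL7-WT ESCs and *Nr5a2*, a nuclear receptor that can activate *Pou5f1*, fell by 0.42, with *Zfp42*, *Rif1* and *Nanog* the other genes that fell. In PRAMEL7-ΔN ESCs 1 was called higher and 2 lower (3 and 2 with median-ratio scaling, 6 and 2 with the GC correction), against 6.25% and 13.6% of all tested genes. *Nr5a2* fell there as well, by 0.47 on the log2 scale (adjusted p = 0.00593, limma). *Otx2*, a factor of primed pluripotency, had 44.4 and 43.5 CPM in parental ESCs, 61.9 and 63.4 in PRAMEL7-WT ESCs and 24.0 and 21.2 in PRAMEL7-ΔN ESCs, and was called in opposite directions, with 1.43 in the direct contrast (SE 0.10, adjusted p = 3.59e-05, limma). In that contrast *Klf4* (-0.90, adjusted p = 0.00284, limma) and *Nanog* (-0.54, adjusted p = 0.00336, limma) were lower in PRAMEL7-WT ESCs, and of 23 partners 3 were called higher and 5 lower, among tested genes of which 10.9% were called higher and 9.44% lower.

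Of 16 genes of let-7 processing and let-7 targets, 14 were tested. In PRAMEL7-WT ESCs 1 was called higher and 5 lower (2 and 2 with median-ratio scaling), against 8.71% and 16.3% of all tested genes. In PRAMEL7-ΔN ESCs 1 was called higher and 6 lower (2 and 5 with the GC correction), against 6.25% and 13.6%. *Dicer1*, the nuclease that cuts microRNA precursors, had 221 and 226 CPM in parental ESCs, 182 and 173 in PRAMEL7-WT ESCs and 118 and 118 in PRAMEL7-ΔN ESCs, where it fell by 0.91 (SE 0.08, adjusted p = 0.000143, limma). Among let-7 targets, *Hmga2* fell by 0.95 in PRAMEL7-ΔN ESCs from a low level of 5.57 and 4.66 CPM, while *Igf2bp3* rose by 0.75 and *Hmga1* rose by 0.39 in PRAMEL7-WT ESCs. *Igf2bp2* fell in both lines, by 0.66 in PRAMEL7-WT ESCs and 0.48 in PRAMEL7-ΔN ESCs. *Lin28b*, the paralogue of *Lin28a*, had 14.3 and 14.9 CPM in parental ESCs and 10.9 and 9.58 in PRAMEL7-WT ESCs, a fall of 0.48 (adjusted p = 0.0336, limma), and was lower there than in PRAMEL7-ΔN ESCs as well (-0.48, adjusted p = 0.0384, limma). In the contrast of the derived lines 5 of 14 were called higher and 3 lower, against 10.9% and 9.44% of all tested genes, led by *Hmga2* (1.05), *Mycn* (0.58) and *Igf2bp3* (-0.52).

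Relatives of the core factors were mostly silent or low: of 36 POU, SOX, SALL and zinc finger paralogues, 20 were tested. In PRAMEL7-WT ESCs 2 were called higher and 2 lower (4 and 2 with median-ratio scaling), against 25% of all tested genes in either direction. In PRAMEL7-ΔN ESCs 1 was called higher and 5 lower (3 and 3 with median-ratio scaling), against 19.9%. Among POU genes, *Pou6f1* fell from 6.19 and 6.45 CPM to 1.87 and 1.43 in PRAMEL7-WT ESCs and to 1.71 and 1.95 in PRAMEL7-ΔN ESCs. *Pou2f3* fell by 1.66 on the log2 scale in PRAMEL7-WT ESCs, and *Pou4f2* rose by 1.45 in PRAMEL7-ΔN ESCs, from 3.61 and 2.12 CPM to 9.34 and 9.40. Among SOX genes, *Sox13* had 37.8 and 44.5 CPM in parental ESCs, 59.5 and 62.6 in PRAMEL7-WT ESCs and 28.7 and 26.8 in PRAMEL7-ΔN ESCs, and was called in opposite directions, with 1.11 in the direct contrast (SE 0.11, adjusted p = 0.000253, limma). *Sox21* fell by 1.04 in PRAMEL7-ΔN ESCs, and *Sox7* rose by 0.58 in PRAMEL7-WT ESCs. In the contrast of the derived lines 3 paralogues were called higher and 2 lower, against 20.4% of all tested genes in either direction.

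Of the 20 markers of other cells, 7 were tested, and in PRAMEL7-WT ESCs 1 was called higher and 2 lower than in parental ESCs (2 and 2 with quantile normalization, 0 and 2 with the GC correction), against 25% of all tested genes in either direction. In PRAMEL7-ΔN ESCs 2 were called higher and 0 lower (2 and 1 with the GC correction), against 19.9%. *Thy1*, a marker of fibroblasts among others, had 39.6 and 52.4 CPM in parental ESCs, 20.5 and 21.6 in PRAMEL7-WT ESCs and 42.3 and 37.9 in PRAMEL7-ΔN ESCs. *Thy1* was lowest in the line where *Utf1* was highest, and its part in that result was not tested. The other marker counted as lower in PRAMEL7-WT ESCs was *Col1a1* (log2 fold change -1.02). It was low throughout, with 1.45 and 2.66 CPM in parental ESCs and 0.456 and 0.496 in PRAMEL7-WT ESCs. In PRAMEL7-ΔN ESCs it had 1.05 and 0.792 CPM. *Col1a1* would have failed the filter on low values without the parental libraries, so its call as lower than parental ESCs is no support for a fall. *Eomes*, a factor of mesendoderm and trophoblast, rose by 0.96 in PRAMEL7-ΔN ESCs, and *Gata4*, an endoderm factor that was called higher in both lines, stayed at 2.66 CPM or less in every library.

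Pairs of core genes ranged from close to opposite patterns across the libraries. Pearson's r of log2(CPM + 1) over 6 libraries was 0.96 for *Pou5f1* and *Utf1*, -0.87 for *Utf1* and *Zfp281* and -0.23 for *Pou5f1* and *Sox2*, and of the other pairs *Sall4* and *Utf1* had 0.62. These are descriptions over 6 points that share line, depth and base composition. Among 8385 genes of at least 10 CPM, the closest in pattern were *Sbno2* (r = 0.995), *Zfp36* and *Wtip* for *Pou5f1*, *Hmg20b* (r = 0.996), *Trmt112* and *Kifc5b* for *Utf1*, and *Irf2bp2* (r = 0.998), *Usp6nl* and *Impa2* for *Sall4*. For *Sox2* they were *Cwc27* (r = 0.992), *Acot13* and *Zcchc9*, which all lie on chromosome 13, for *Lin28a* *Diablo* (r = 0.983), *Psma6* and *Cops4*, and for *Zfp281* *Ccdc181* (r = 0.991), *Slc35a1* and *Rint1*. An r above 0.9 was reached by 283 genes for *Pou5f1*, 85 for *Sox2*, 392 for *Sall4*, 348 for *Utf1*, 86 for *Lin28a* and 295 for *Zfp281*.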

How the data were processed

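Polyadenylated RNA from 2 dishes of each of 3 ESC lines had been sequenced after TruSeq preparation without strand marking. Per the methods, the authors filtered ribosomal reads (SortMeRNA) and trimmed the rest (Trimmomatic) before alignment to mm10 by STAR, and they deposited RPKM values per gene. The methods give triplicates, whereas 2 libraries per line were held here. Deposited tables of the authors' comparisons hold their fold changes, p-values and mean reads and were not used. The 6 ChIP samples were not analysed here.

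Of 50978 rows, 176 with a repeated or date-like name, 2723 without and 72 with several matches in GENCODE vM21 were left out. Among values up to 20 reads, 98.1 to 98.4% per library came within 0.1 of a whole read after multiplication of RPKM by the gene span (16.1 to 20.6% with exon length), so that the span was the length used. RPKM was converted to CPM with 1 constant for all libraries, and levels were compared between genes only per exon length. The filter asked for more than 1 CPM in 2 or more libraries, and the test was limma 3.58.1 on log2(CPM + 1) (R 4.3.3, mean-variance trend, all 6 libraries in 1 fit) with Benjamini-Hochberg adjustment over 12914 genes and calls at an adjusted p under 0.05. The fit had 3 residual degrees of freedom. On simulated data for PRAMEL7-WT ESCs against parental ESCs over 12914 genes, 98% of 2-fold and 60% of 1.5-fold changes were recovered, with 9 false calls. The simulation gave all genes and lines the same spread and held no trend with GC content, unlike these data. Its shares therefore check the procedure and are not the power or the rate of false calls here. Sequences came from RefSeq for GRCm38.p6, with promoter entries for 5 of the 6 core genes. Tables and figures used python 3.11.15, pandas 2.3.3 and matplotlib 3.10.9.

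The core genes and gene lists were chosen with earlier results of these data known. All core genes were named, and from each list up to 2 genes per direction and comparison with the largest change among those called. *Zfp42*, *Rif1*, *Nanog* in PRAMEL7-WT ESCs, *Fbxo15*, *Fgf4*, *Thy1* and *Gata4* were named after their values were seen.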

Additional observations from a re-analysis of the deposited data

Results flagged for a closer look

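*Sall4* and *Zfp281* differed between the PRAMEL7-WT and PRAMEL7-ΔN lines, by their direct contrast in limma with Benjamini-Hochberg adjustment. *Sall4* was 0.30 higher on the log2 scale in PRAMEL7-WT ESCs than in PRAMEL7-ΔN ESCs, and the difference of *Zfp281* was -0.44. All 4 libraries showed each direction, and both calls were lost when any library of the derived lines was left out. No group had enough libraries for a search for single outlying samples.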

How the results depend on the processing

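The count of core genes called in PRAMEL7-WT ESCs against parental ESCs (1) was 0 without a filter and 0 on RPKM without conversion. It was 2 with median-ratio scaling, 2 with equal library totals and 2 with upper-quartile scaling. At the unadjusted p it was 3, where the share of all tested genes was not counted. Counts from fits without 1 library are not given, because such fits take their spread from fewer libraries. In PRAMEL7-ΔN ESCs against parental ESCs (0) it was 2 at the unadjusted p, with the share of all tested genes again not counted. In the contrast of the derived lines (2) it was 0 without a filter, 0 without the trend and 0 on RPKM without conversion. With an added limit of 0.58 on the log2 fold change it was also 0. A replicate block gave 2 (*Sox2* and *Utf1*), 1 (*Sox2*) and 1 (*Sall4*) in these comparisons. Over all 12914 tested genes, the block called 955 higher and 1774 lower, 652 and 1460, and 1206 and 975 in the same order. Same-numbered libraries deviated from the means of their lines with correlations of 0.32, -0.36 and -0.12 over 8560 genes. With 2 libraries per line, these values cannot settle whether same-numbered samples were handled together. The other settings, among them voom on whole reads, kept each count within 1.5 times. Within that limit, the contrast of the derived lines gave 3, with *Utf1* added, under median-ratio scaling, upper-quartile scaling and a fit of the compared lines only.

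Directions turned for small values. *Lin28a* in PRAMEL7-ΔN ESCs over parental ESCs had 0.078 with median-ratio scaling, 0.002 with equal library totals, 0.018 with upper-quartile scaling, 0.10 with the GC correction and ranged from -0.144 to 0.132 with 1 library left out. *Pou5f1* in the contrast of the derived lines had -0.022 with the GC correction. With 1 library left out, *Lin28a* in PRAMEL7-WT ESCs over parental ESCs ranged from -0.091 (without parental replicate 2) to 0.186, *Utf1* in PRAMEL7-ΔN ESCs from -0.091 (without parental replicate 1) to 0.462, *Zfp281* in PRAMEL7-ΔN ESCs from -0.101 (without parental replicate 2) to 0.251, and *Sox2* in the contrast of the derived lines from -0.044 (without PRAMEL7-WT replicate 2) to 0.236. The cause was not tested. Where 1 library of a line was left, it was assumed to vary like the others.

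Over all tested genes, 1125 were called higher and 2109 lower in PRAMEL7-WT ESCs against parental ESCs, which became 1752 and 1451 with median-ratio scaling. In PRAMEL7-ΔN ESCs, 807 and 1759 became 1166 and 1336. The median log2 fold change moved from -0.08 to 0.01 and from -0.06 to 0.02. In PRAMEL7-WT ESCs the calls were 1084 and 2188 with equal library totals and 1278 and 1917 with upper-quartile scaling. They were 1508 and 1541 with quantile normalization and 1679 and 1593 with the GC correction. In PRAMEL7-ΔN ESCs they were 1075 and 1228 with quantile normalization and 1743 and 1588 with the GC correction. The contrast of the derived lines had 1409 and 1219, and 1543 and 1178 with median-ratio scaling. With 2 libraries per line, 60% of simulated 1.5-fold changes were recovered, under a spread set equal for all genes and lines. The power for these data was not measured.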
